A study of Homo sapiens with 16 samples.

Results

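Synthesis of the nonessential amino acids asparagine, proline, alanine and glutamine was followed through 7 enzyme genes, ASNS, ALDH18A1, PYCR1, GPT2, GOT1, PCK2 and GLUL, in 2 papillary thyroid carcinoma cell lines treated with inhibitors of MDM2 and PPM1D. The genes were taken by their symbols from a table of 25369 genes, and all 7 passed the filter on low counts in both lines. TPC1 and K1 cells, which carry wild type p53, received 0.2% DMSO as vehicle, 10 µM Nutlin-3a (Nutlin), 25 µM GSK2830371 (GSK), or both drugs (the combination) for 24 h. Nutlin frees p53 from MDM2, its ubiquitin ligase, and GSK inhibits PPM1D, a phosphatase that opposes p53. Each of these treatments was sequenced in 2 libraries per line, 16 in all. The labels do not say whether the libraries of a pair came from separate cultures, while the study states for its experiments in general that replicates were biological and made independently. The p values measure the spread between these libraries. TPC1 was grown in RPMI and K1 in DMEM, so line and medium cannot be told apart. In its common formulation RPMI contains asparagine and proline, whereas DMEM contains neither.

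ASNS, asparagine synthetase, makes asparagine from aspartate with glutamine as the nitrogen donor, and GOT1, the cytosolic aspartate aminotransferase, interconverts aspartate and oxaloacetate. ALDH18A1 converts glutamate to the precursor that PYCR1 reduces to proline in mitochondria. GPT2 makes alanine from pyruvate in mitochondria, PCK2 makes phosphoenolpyruvate from oxaloacetate in the same compartment, and GLUL makes glutamine from glutamate. Several of these genes, ASNS and PCK2 among them, are known targets of ATF4, the transcription factor of the integrated stress response that is translated when amino acids are scarce. In bulk RNA, fewer cells of a type and less RNA per cell cannot be told apart.

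The promoter letters of ASNS and GOT1 are shown because these are the members whose listed promoters hold the core of the C/EBP-ATF response element, to which ATF4 binds together with C/EBP proteins. The core was searched as TGATGNAA on both strands, in the 300 bases that the RefSeq table (GRCh38.p14) gives around each start site. It is present in 3.62% of the 35116 promoters of that table. Of the members, 5 have promoters in the table, and PYCR1 and GPT2 are not listed. ALDH18A1, PCK2 and GLUL had no match in this window. The stretches below run 5′ to 3′ on the strand of the gene, chr7:97872409-97872528 (minus strand) for ASNS and chr10:99430755-99430874 (minus strand) for GOT1, with the match in capitals.
ASNS: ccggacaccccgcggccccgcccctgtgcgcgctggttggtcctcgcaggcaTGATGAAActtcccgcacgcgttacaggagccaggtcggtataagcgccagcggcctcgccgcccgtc
GOT1: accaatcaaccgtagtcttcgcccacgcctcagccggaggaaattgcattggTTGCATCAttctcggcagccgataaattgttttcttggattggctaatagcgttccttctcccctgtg
In ASNS the match lay 68 to 61 bases before the first of its 2 listed start sites, in the direction of transcription. In GOT1 it lay 198 to 191 bases before the start site and reads TGATGCAA on the opposite strand. A match describes these letters and does not show binding.

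TPC1 libraries had 30789887 to 76648552 counts in total and K1 libraries 28888686 to 37161241. Between the 2 libraries of a treatment, the variance was 11.6 to 48.3 times the counting noise in TPC1 and 4.96 to 8.16 times in K1, so in no treatment did the pair agree within counting noise. In TPC1 the count columns are numbered 1 and 3, and the libraries are named so here. Levels are given in CPM, counts scaled to library size after TMM scaling of all 16 libraries. A gene is called when its adjusted p is under 0.05 and its fold change above 1.5, with changes written as log2 fold change ± SE from edgeR. As a check of the treatments, CDKN1A and MDM2, direct p53 targets, rose with Nutlin by 5.61 ± 0.141 and 4.96 ± 0.106 in TPC1 and by 3.16 ± 0.0613 and 3.05 ± 0.0682 in K1. The thyroid transcription factor genes PAX8 and FOXE1 were present in every library, whereas the thyroid genes TSHR (0 in every library), NKX2-1 and SLC5A5 stayed under 1 CPM. TG, thyroglobulin, was at 2.75 to 6.04 CPM in K1, and in TPC1 it held 0.158 and 0.308 CPM with DMSO, 2.36 and 2.49 with Nutlin, 0.388 and 0.204 with GSK, and 5.17 and 3.75 with the combination. It was called higher with Nutlin and with the combination in both lines. KRT8 and KRT18 were present and EPCAM, CDH1 and KRT19 stayed under 1 CPM. The T cell marker CD3E was at 0 in every library, and PECAM1 and CDH5 of endothelium stayed under 1 CPM. Of the markers of other cell types, CD68, COL1A1 and PDGFRB, and in K1 also RBFOX3, exceeded 1 CPM on average over a line.

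With DMSO, the enzymes of proline synthesis were the most abundant of the set in TPC1, while ASNS was at 73.5 ± 9.01 CPM in TPC1 and 74.3 ± 22.3 CPM in K1 (SD, n = 2). Scaled to the length of the canonical transcript, the levels in TPC1 with DMSO were 67.8 ± 6.57 CPM per kb for PYCR1, 63.8 ± 1.09 for ALDH18A1, 35.9 ± 5.06 for GOT1, 30.8 ± 3.78 for ASNS, 23.1 ± 1.28 for PCK2, 16.3 ± 0.686 for GPT2 and 13 ± 0.831 for GLUL (SD, n = 2). The difference between PYCR1 and ALDH18A1, and that between GOT1 and ASNS, were within the spread of the libraries. The place of GLUL depends on the scaling, as its canonical transcript is the longest of the set (7554 bases). Without the scaling GLUL stood at 98.2 ± 6.28 CPM in TPC1 with DMSO, above ASNS. In K1 with DMSO the order was ALDH18A1 (34.3 ± 0.762 CPM per kb), ASNS (31.2 ± 9.35), PYCR1 (24.8 ± 3.38), GOT1 (23.5 ± 0.249), PCK2 (16.7 ± 4.73), GLUL (14 ± 0.0548) and GPT2 (12.6 ± 0.257). There the ASNS libraries overlapped those of ALDH18A1 and PYCR1, the PYCR1 libraries those of GOT1, and the PCK2 libraries those of GLUL.

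**Figure D1:**
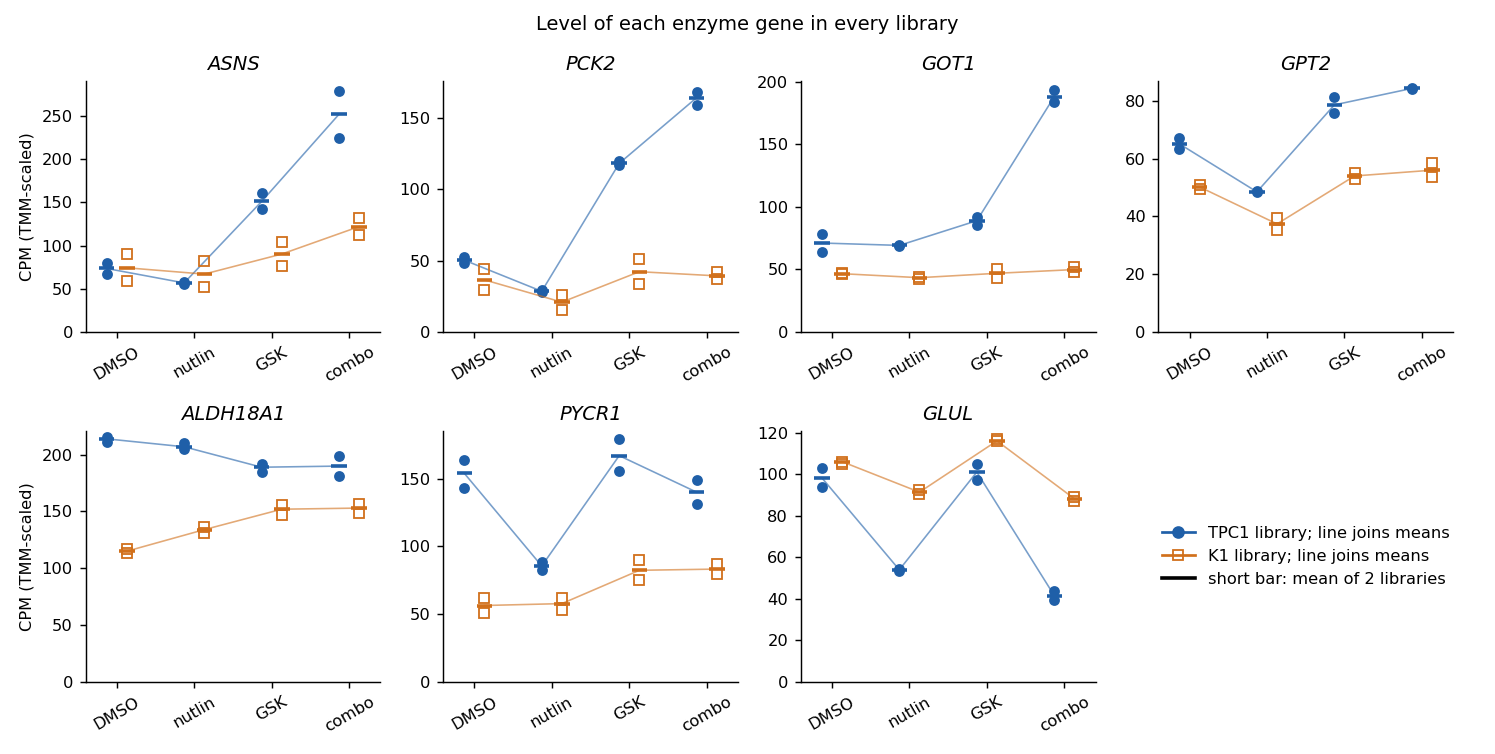
Level of each of the 7 genes in every library, in CPM after TMM scaling, with treatments on the horizontal axis (combo: both drugs). Filled circles are TPC1 libraries, open squares K1 libraries, short bars the mean of 2 libraries, and lines join the means. In TPC1 the levels of ASNS, PCK2 and GOT1 with both drugs stood above those of every other treatment.

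In TPC1, ASNS rose with GSK and rose further when Nutlin was added, although Nutlin alone left it somewhat lower than DMSO. The gene lies at chr7:97480989-97501854 (GRCh37, as are the gene positions below). Its level was 67.1 and 79.9 CPM with DMSO, 55.3 and 58.2 with Nutlin, 142 and 161 with GSK, and 225 and 279 with the combination. The treatments did not overlap, and their order was combination, GSK, DMSO, Nutlin. GSK raised ASNS by 1.04 ± 0.114 (adjusted p = 0.00434) and the combination raised it by 1.75 ± 0.116 over DMSO (adjusted p = 1.42e-06). Against Nutlin alone the combination stood 2.16 ± 0.118 higher, a 4.46-fold difference. Nutlin on its own shifted ASNS by −0.41 ± 0.114 (adjusted p = 0.0139), short of 1.5-fold. The call for GSK was lost without TPC1 GSK replicate 3, over settings that ran from 0.95 to 1.16.

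PCK2, the mitochondrial phosphoenolpyruvate carboxykinase (chr14:24563262-24579807), had the widest range of the set. The level was 48.4 and 52.3 CPM with DMSO, 27.7 and 29.3 with Nutlin, 117 and 120 with GSK, and 159 and 168 with the combination, so the highest treatment mean was 5.75 times the lowest. Replicates differed little, and no treatments overlapped. Nutlin lowered PCK2 by −0.85 ± 0.0748 (adjusted p = 1.25e-05), GSK raised it by 1.24 ± 0.0737 (adjusted p = 0.000267), and the combination raised it by 1.67 ± 0.0744 (adjusted p = 1.09e-07). The combination stood 2.53 ± 0.0773 above Nutlin alone, a 5.77-fold difference. Against GSK alone the difference was 0.44 ± 0.0723, short of 1.5-fold. PCK1, the cytosolic form, had 1 read in all in the 8 TPC1 libraries.

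GOT1 (chr10:101156627-101190381) was called in TPC1 only where the combination was compared. Its libraries held 64 and 78.2 CPM with DMSO, 68.5 and 69.9 with Nutlin, 85.5 and 92.2 with GSK, and 193 and 184 with both drugs. The combination stood apart from the 3 other treatments, among which Nutlin lay within the range of DMSO. It exceeded DMSO by 1.38 ± 0.0924 (adjusted p = 1.53e-06), Nutlin by 1.45 ± 0.0927 and GSK by 1.05 ± 0.0916, whereas GSK alone gave 0.32 ± 0.0913 (adjusted p = 0.0901). Its mitochondrial paralogue GOT2 went from 205 and 234 CPM with DMSO to 163 and 176 with the combination, a change of −0.40 ± 0.0818 that fell short of 1.5-fold.

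GPT2 (chr16:46918274-46965201) followed the order of ASNS with a much smaller range. Its level was 63.2 and 67.1 CPM with DMSO, 48.8 and 48.3 with Nutlin, 75.8 and 81.4 with GSK, and 84.2 and 84.4 with the combination. No treatments overlapped, but only the step from Nutlin to the combination was called, at 0.80 ± 0.0724 (adjusted p = 0.000135). Against DMSO, Nutlin gave −0.46 ± 0.0722 and the combination 0.34 ± 0.0716, both past the adjusted p and short of 1.5-fold. GPT, the cytosolic alanine aminotransferase, did not exceed 0.211 CPM in TPC1.

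Proline synthesis diverged between its steps. ALDH18A1 (chr10:97365698-97416468), which catalyses the first, was nearly level in TPC1, with 211 and 216 CPM with DMSO, 205 and 210 with Nutlin, 185 and 192 with GSK, and 181 and 199 with the combination. It was not called in any comparison within TPC1. PYCR1 (chr17:79890260-79900288), which catalyses the last, held 143 and 164 CPM with DMSO, 82.5 and 88.5 with Nutlin, 156 and 179 with GSK, and 131 and 149 with both drugs. Nutlin alone stood apart from the other treatments, 0.88 lower than DMSO on the log2 scale (−0.88 ± 0.0953, adjusted p = 4.96e-05). The combination exceeded Nutlin by 0.72 ± 0.0952 (adjusted p = 0.00094), and with it PYCR1 differed from DMSO by −0.16 ± 0.0942 (adjusted p = 0.162).

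GLUL (chr1:182347233-182361341), glutamine synthetase, was the only member called lower with the combination than with DMSO in TPC1. It held 93.7 and 103 CPM with DMSO, 53.5 and 54.3 with Nutlin, 97.3 and 105 with GSK, and 39.3 and 43.8 with the combination. DMSO and GSK overlapped and lay above both treatments with Nutlin. Nutlin lowered GLUL by −0.90 ± 0.0815 (adjusted p = 1.54e-05) and the combination lowered it by −1.27 ± 0.0822 (adjusted p = 1.23e-06), and between those treatments the difference of −0.37 ± 0.0818 fell short of 1.5-fold.

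**Figure D2:**
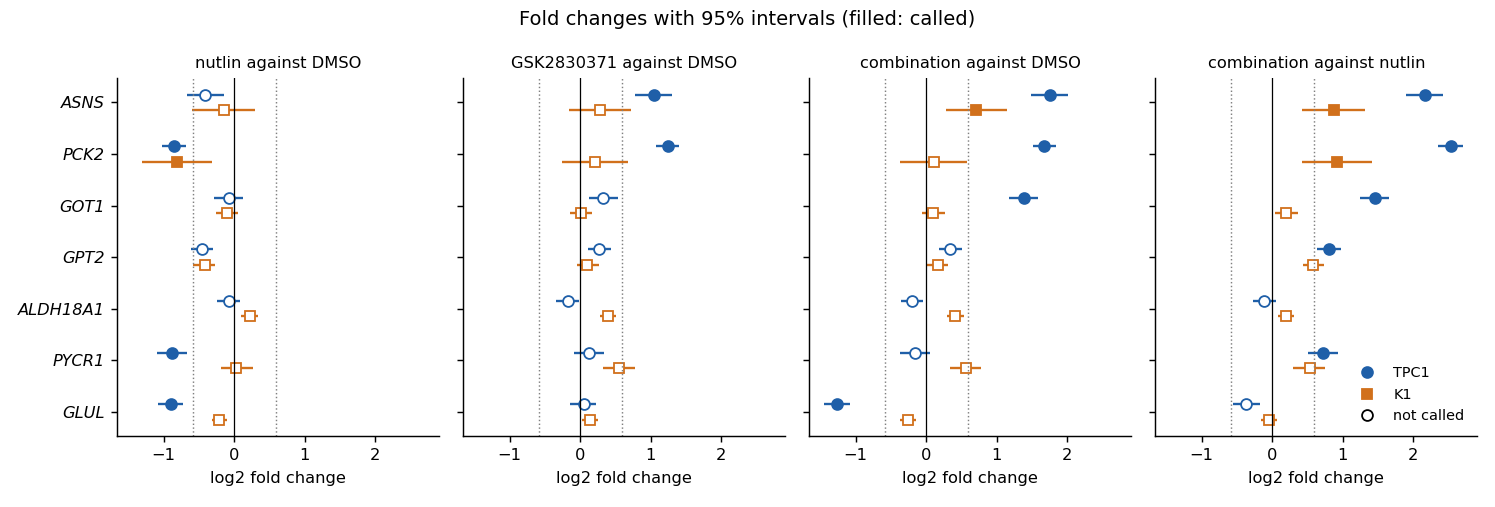
log2 fold change of the 7 genes in 4 comparisons, with 95% confidence intervals (edgeR). Circles are TPC1 and squares K1, filled symbols were called, and dotted lines mark a 1.5-fold change. With both drugs against Nutlin, 5 genes were called higher in TPC1 and 2 in K1.

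Counted over the set in TPC1, Nutlin lowered 3 of the 7 genes (PYCR1, PCK2 and GLUL) and raised none, in a comparison that called 35.5% of all 15273 genes tested, 18% of them in the lower direction. GSK raised 2 of 7, ASNS and PCK2, where 1.4% of genes were called in either direction and 0.72% were called higher. The combination against DMSO raised ASNS, GOT1 and PCK2 and lowered GLUL, 4 of 7 where 44.2% of all genes were called, 22.5% higher and 21.7% lower. Adding GSK to Nutlin raised 5 of 7 and lowered none, where 12.1% of genes were called and 6.46% were called higher. Adding Nutlin to GSK raised ASNS (0.71 ± 0.113) and GOT1 and lowered GLUL (−1.31 ± 0.0823), 3 of 7 where 38.5% of genes were called (19.5% higher, 19% lower), and the ASNS call was lost without TPC1 combination replicate 3. The comparisons with Nutlin or DMSO share libraries with one another. In all comparisons the median log2 fold change over all genes tested lay between −0.03 and 0.02.

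Whether the effect of both drugs differed from the sum of the single effects was asked with the interaction term of the same fit. It was called higher in 4 of 7 genes and lower in none in TPC1, where 6.32% of all genes were called and 2.82% were called higher. The excess on the log2 scale was 1.29 ± 0.104 for PCK2 (adjusted p = 0.00044), 1.13 ± 0.129 for GOT1 (adjusted p = 0.00204), 1.11 ± 0.161 for ASNS (adjusted p = 0.005) and 0.59 ± 0.134 for PYCR1 (adjusted p = 0.0291). That of PYCR1 lay at the fold limit and ran from 0.50 to 0.68 over 15 other settings, of which 7 lost the call. These were library size alone and the removal of any library other than DMSO replicate 1 and combination replicate 1. GPT2 had 0.53 ± 0.102 (adjusted p = 0.0166), short of 1.5-fold and called with the GC trend removed, and GLUL had −0.41 ± 0.115 (adjusted p = 0.0577).

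Fewer members were called in K1. ASNS held 58.6 and 90.1 CPM with DMSO, 81.9 and 52.1 with Nutlin, 104 and 76.5 with GSK, and 132 and 112 with the combination. Only the combination lay above the range of the other treatments, and it was called higher than DMSO by 0.71 ± 0.203 (adjusted p = 0.0114) and higher than Nutlin by 0.87 ± 0.206 (adjusted p = 0.0149). PCK2 held 29.2 and 43.8 CPM with DMSO, 26.2 and 15.6 with Nutlin, 50.8 and 33.6 with GSK, and 41.9 and 36.8 with the combination. Nutlin alone lay below the other treatments, and was called lower than DMSO (−0.81 ± 0.231, adjusted p = 0.0166) and lower than the combination, which stood 0.92 ± 0.232 above it (adjusted p = 0.0202).

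These K1 calls rested on pairs of libraries that disagreed with each other. With DMSO, replicate 2 held 1.54 times the ASNS level of replicate 1 and 1.5 times its PCK2 level. In the other K1 treatments the direction was opposite, with ASNS ratios of 0.636 for Nutlin, 0.736 for GSK and 0.851 for the combination, and PCK2 ratios of 0.596, 0.661 and 0.877. Of 10552 genes, 0.0948% had as large a gap as ASNS with DMSO, and 0.104% as large a gap as PCK2 with Nutlin. PSAT1, a serine synthesis enzyme and ATF4 target, had ratios of 1.48, 0.598, 0.727 and 0.876 in the same order, whereas ATF4 itself had 0.913, 1.03, 1.08 and 1.04. GLUL ratios in K1 stayed between 0.98 and 1.02. In TPC1 the ratios of replicate 3 to replicate 1 ran from 1.05 to 1.24 for ASNS and from 1.02 to 1.08 for PCK2.

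The calls for ASNS and PCK2 in K1 changed accordingly when a library was left out. ASNS under the combination against DMSO ran from 0.44 to 1.06 and was lost without K1 DMSO replicate 1 or without K1 combination replicate 1, and the fall of PCK2 with Nutlin ran from −1.23 to −0.48 and was lost without K1 DMSO replicate 2 or without K1 Nutlin replicate 2. Against Nutlin, the ASNS call was lost without K1 combination replicate 1 or K1 Nutlin replicate 2, and the PCK2 call without either combination replicate or K1 Nutlin replicate 2. DESeq2's Wald test called none of these 4. What sets the K1 libraries apart in these genes was not tested.

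**Figure D3:**
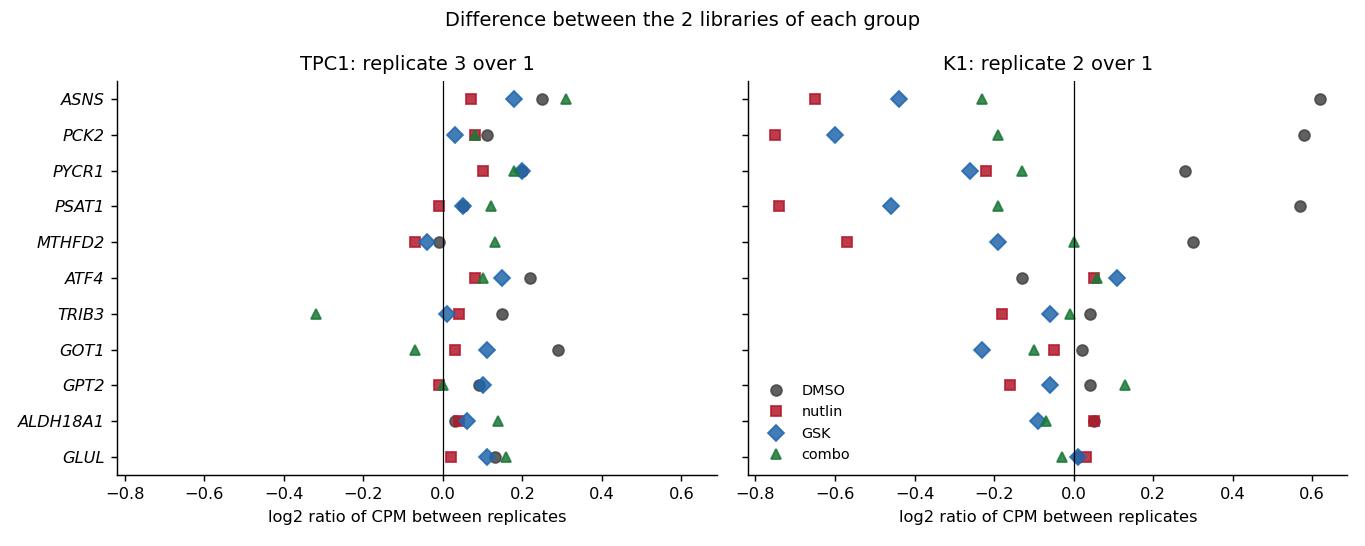
log2 ratio of CPM between the 2 libraries of a treatment, for the 7 genes and for PSAT1, MTHFD2, ATF4 and TRIB3, in TPC1 (left) and K1 (right). Each symbol is 1 treatment. In K1 the ASNS, PCK2, PSAT1 and MTHFD2 points with DMSO lie to the right of 0 and those with Nutlin to the left, whereas GLUL points lie close to 0.

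The other members were quieter in K1. GOT1 held 46.2 and 46.9 CPM with DMSO and 51.7 and 48.2 with the combination, and its difference from DMSO of 0.10 ± 0.075 had a 95% interval of −0.06 to 0.26, below the 1.38 of TPC1. GPT2 was not called, at 49.5 and 50.9 CPM with DMSO, 39.5 and 35.3 with Nutlin, 55.2 and 52.8 with GSK, and 53.5 and 58.5 with both drugs. Its step from Nutlin to the combination was 0.58 ± 0.0716 (adjusted p = 0.000252), just under 1.5-fold. It was called with library size alone, without the filter on low counts, with the GC trend removed, and without K1 combination replicate 1 or K1 Nutlin replicate 1. GLUL held 105 and 106 CPM with DMSO, 90.3 and 92.3 with Nutlin, 116 and 117 with GSK, and 89.1 and 87.2 with the combination, a change of −0.26 ± 0.0501 for the last.

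Both enzymes of proline synthesis were higher in K1 whenever GSK was present, although neither reached 1.5-fold. ALDH18A1 held 113 and 117 CPM with DMSO, 131 and 136 with Nutlin, 156 and 147 with GSK, and 157 and 149 with the combination. GSK and the combination overlapped above the rest, with 0.40 ± 0.0551 (adjusted p = 0.000636) and 0.41 ± 0.0551 (adjusted p = 3.87e-05). PYCR1 held 50.9 and 61.7 CPM with DMSO, 62.2 and 53.2 with Nutlin, 89.6 and 75 with GSK, and 87 and 79.4 with the combination. The GSK and combination libraries again lay above the others, with 0.55 ± 0.103 (adjusted p = 0.00291) and 0.56 ± 0.103 (adjusted p = 0.000567). Both lay near the limit, and PYCR1 was called with GSK without K1 DMSO replicate 2 or K1 GSK replicate 2, and with the combination under library size alone, with the GC trend removed, and without K1 DMSO replicate 2 or K1 combination replicate 2. Against Nutlin, the combination gave 0.53 ± 0.104 for PYCR1, called without K1 combination replicate 2 or K1 Nutlin replicate 1.

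In K1 the counts of members called were 1 of 7 with Nutlin (PCK2, lower) where 9.27% of 15900 genes were called and 5.43% were lower, 0 of 7 with GSK where 2.23% were called, and 1 of 7 with the combination (ASNS, higher) where 15.7% were called and 7.62% were higher. With GSK, 3 of the 7 had an unadjusted p under 0.05 in edgeR, and DESeq2 also called 0. The combination against Nutlin raised ASNS and PCK2, 2 of 7 where 2.68% of genes were called and 1.16% were higher. For the combination against GSK, 0 of 7 were called by edgeR and by DESeq2 where 13.1% of genes were called, and 1 had an unadjusted p under 0.05 in edgeR. ASNS (0.44 ± 0.203) was called there without K1 GSK replicate 1. For the interaction 0 of 7 were called by edgeR and by DESeq2 where 2.44% of genes were called, and 4 had an unadjusted p under 0.05.

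The lines were then compared directly, with all 16 libraries fitted at once (16738 genes tested). With DMSO, ASNS did not differ beyond its error (K1 minus TPC1 0.01 ± 0.205, 95% interval −0.42 to 0.45), whereas K1 had less PYCR1 (−1.45 ± 0.119, adjusted p = 1.36e-08), less ALDH18A1 (−0.89 ± 0.0691, adjusted p = 6.25e-09) and less GOT1 (−0.61 ± 0.0942, adjusted p = 2.28e-05), 3 of 7 where 46.2% of all genes were called and 21.2% were lower. The GOT1 difference fell below 1.5-fold with the replicate number as a block (−0.52), with the GC trend removed (−0.57) and without TPC1 DMSO replicate 3. PCK2 (−0.46 ± 0.203, adjusted p = 0.0534) was called without K1 DMSO replicate 2.

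The fold changes of ASNS, GOT1 and PCK2 under both drugs were smaller in K1 than in TPC1. For the combination against DMSO the difference between the lines was −1.06 ± 0.289 for ASNS (adjusted p = 0.00788), −1.30 ± 0.133 for GOT1 (adjusted p = 1.13e-06) and −1.59 ± 0.287 for PCK2 (adjusted p = 0.000327). It was positive for PYCR1 (0.70 ± 0.165) and for GLUL (0.98 ± 0.103), so 5 of 7 were called where 25.7% of all genes were called, 11.9% higher and 13.8% lower. Without K1 DMSO replicate 2 the ASNS difference was no longer called, and without K1 DMSO replicate 1 that of PYCR1 was not. ALDH18A1 differed by 0.58 ± 0.097 (adjusted p = 0.000154), just under 1.5-fold, and was called in 9 of 24 other settings.

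Adding GSK to Nutlin gave the same 3 genes a smaller step in K1, by −1.28 ± 0.291 for ASNS, −1.24 ± 0.134 for GOT1 and −1.60 ± 0.295 for PCK2, 3 of 7 where 5.11% of genes were called and 2.56% were lower. The ASNS difference was lost without K1 combination replicate 2 or without K1 Nutlin replicate 1. For Nutlin alone, the changes of PYCR1 (0.88 ± 0.167) and GLUL (0.66 ± 0.102) were less negative in K1, 2 of 7 where 19.2% of genes were called and 8.73% were higher, whereas no difference was detected for PCK2 (0.01 ± 0.296, 95% interval −0.62 to 0.64). For GSK alone 0 of 7 were called where 2.18% of genes were called, although 5 of the 7 had an unadjusted p under 0.05 in edgeR and DESeq2 called 1. PCK2 differed there by −1.02 ± 0.287 (adjusted p = 0.0539) and ASNS by −0.76 ± 0.29 (adjusted p = 0.145). With the replicate number as a block, 2 of 7 were called for GSK, ASNS and PCK2, both smaller in K1, and PCK2 was called in 6 of 24 other settings in all. ALDH18A1 differed by 0.58 ± 0.0971 (adjusted p = 0.0072) and was called in 6 of 24 other settings.

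Around the members, 27 further enzymes and carriers of asparagine, aspartate, proline, ornithine, alanine, pyruvate and glutamate metabolism were listed. Of the 24 tested in TPC1, Nutlin raised 5 and lowered 5, GSK called none, and the combination raised 6 and lowered 7, with medians of −0.14, −0.01 and −0.02. Over all genes these comparisons called 35.5%, 1.4% and 44.2%, so the shares called with Nutlin and with the combination lay near the background. Adding GSK to Nutlin raised 3 and lowered 3, with a median of 0.18, where 12.1% of all genes were called. With GSK in TPC1, 5 had an unadjusted p under 0.05 in edgeR and DESeq2 called 0. Of the 21 tested in K1, 1 was raised by Nutlin and by the combination (PRODH), where 9.27% and 15.7% of all genes were called in either direction. None was called with GSK or for the combination against Nutlin, where 2.23% and 2.68% of all genes were called. In those 2 comparisons 7 and 4 had an unadjusted p under 0.05 in edgeR and DESeq2 called 0.

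Of the 5 further proline and ornithine genes tested in TPC1, Nutlin raised 2 and lowered 2, where 35.5% of all genes were called. PYCRL (now named PYCR3), another reductase of the last step, fell with Nutlin by −1.15 ± 0.0734, as PYCR1 did. PRODH, a p53 target that encodes proline dehydrogenase, went from 0.502 and 0.238 CPM with DMSO to 12.2 and 13.3 with Nutlin and 27.9 and 32.7 with the combination, while GSK alone left it at 0.627 and 0.497. Its rise was 5.21 ± 0.236 with Nutlin. ALDH4A1, which catalyses the next step of proline breakdown, rose by 1.53 ± 0.0767, from 12.2 and 12.9 CPM to 37.9 and 36.

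Under the combination PYCRL stayed low, at −1.52 ± 0.0743 from DMSO. OAT, which links ornithine to the same intermediate, fell by −0.65 ± 0.0842. K1 differed in that PRODH had 0 reads in both DMSO libraries and 9 reads in each Nutlin library (0.308 and 0.276 CPM), so no fold is given, and ALDH4A1 was not called (0.09 ± 0.0979). PYCRL in K1 differed by −0.30 ± 0.0696 with Nutlin, short of 1.5-fold.

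**Figure D4:**
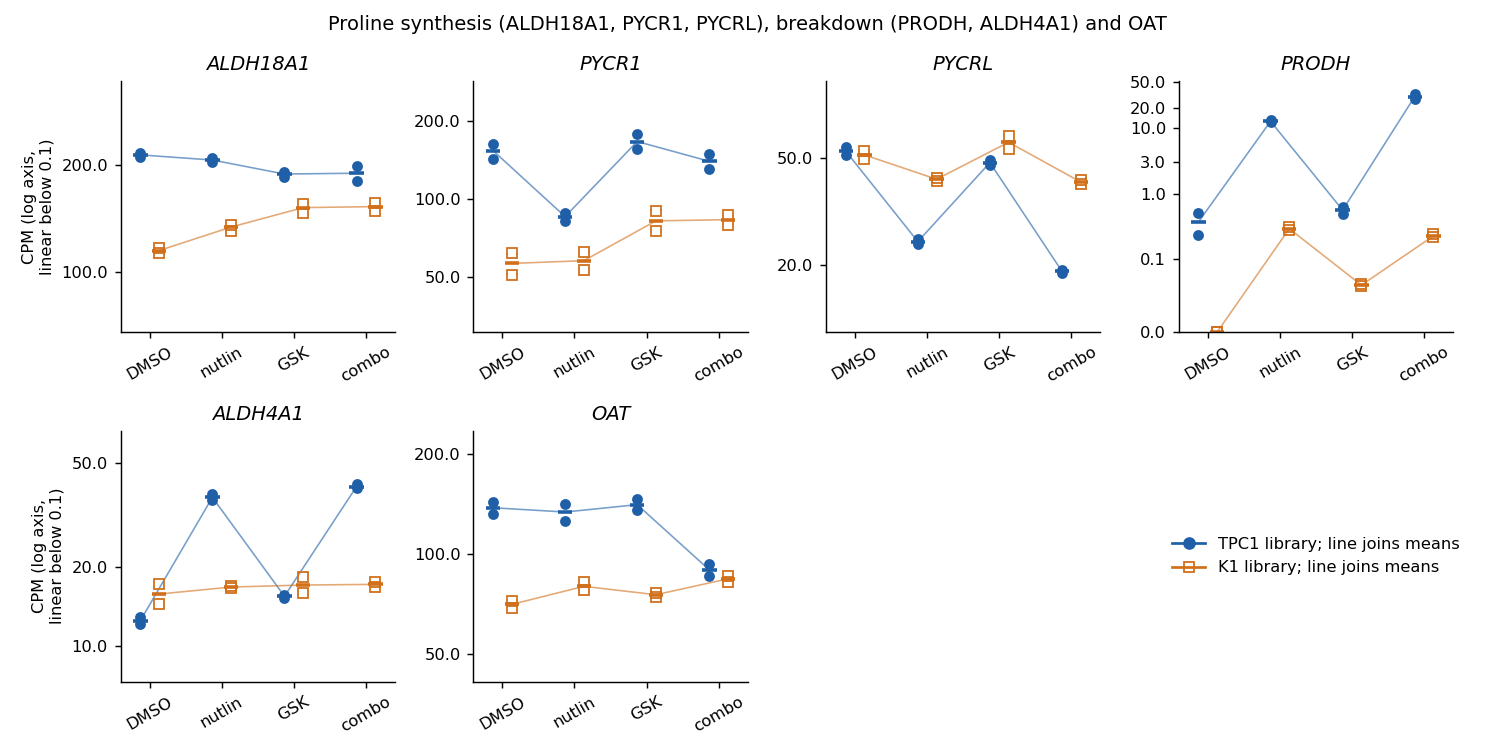
Levels of 6 genes of proline metabolism in every library, in CPM after TMM scaling on a log axis (linear under 0.1), by treatment (combo: both drugs). Filled circles are TPC1 and open squares K1, and lines join the means of 2 libraries. In TPC1, PYCR1 and PYCRL are lowest in the Nutlin or combination libraries while PRODH and ALDH4A1 are highest there.

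The genes around ASNS and GOT1 moved in both directions in TPC1. ASS1, which uses aspartate to make argininosuccinate, rose from 6.84 and 9.24 CPM to 19.4 and 20.6 with Nutlin and 32.2 and 44.6 with the combination (1.27 ± 0.174 and 2.22 ± 0.174). SLC25A12 and SLC25A13, the mitochondrial aspartate-glutamate carriers, fell with the combination by −0.93 ± 0.0898 and −1.10 ± 0.0736. ASRGL1, which breaks down asparagine, fell with Nutlin by −0.77 ± 0.129, and NARS2, the mitochondrial asparaginyl-tRNA synthetase, fell by −1.04 ± 0.0874. ASPG, a second asparaginase gene, had 0 reads with DMSO and with GSK, 13 and 40 with Nutlin, and 42 and 61 with the combination.

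Among the genes that make or use glutamate, the p53 target GLS2 had 0 reads with DMSO in TPC1, 30 and 66 with Nutlin (1.01 and 1.06 CPM), and 57 and 130 with the combination. GLUD1, glutamate dehydrogenase, fell by −0.68 ± 0.0737 with Nutlin and −0.69 ± 0.0737 with the combination. Of the pyruvate enzymes, ME1 rose by 0.60 ± 0.106 with the combination, and PC, pyruvate carboxylase, was lower with the combination than with Nutlin by −0.71 ± 0.0764. GLUD1, GLUL and PRODH have closely similar gene copies or pseudogenes in the genome, so their counts carry the uncertainty of how shared reads were assigned.

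Genes of the integrated stress response and of proliferation were read in the same libraries. Of 10 response genes in TPC1, including ATF4, CHAC1, TRIB3, PSAT1 and MTHFD2, 6 rose with GSK and 9 rose with the combination against DMSO. All 10 were called higher with the combination than with Nutlin (median 1.87). In these comparisons 0.72%, 22.5% and 6.46% of all genes were called higher. Nutlin alone raised 3 of the 10 and lowered 4, where 35.5% of all genes were called. Those raised were SESN2 (2.54 ± 0.0772), ATF3 (1.69 ± 0.164) and DDIT3 (1.62 ± 0.159). For them, part of the rise over DMSO was thus present without GSK. ATF4 held 606 and 704 CPM with DMSO, 486 and 513 with Nutlin, 774 and 857 with GSK, and 1022 and 1099 with the combination, the order in which ASNS and PCK2 stood. In K1, 0 of the 10 were called with GSK by edgeR or DESeq2 (3 had an unadjusted p under 0.05 in edgeR). There 8 rose with the combination and 9 were higher with the combination than with Nutlin (median 1.10). In those 2 comparisons 7.62% and 1.16% of all genes were called higher. Nutlin alone raised 1 of the 10 in K1 and lowered 3, where 9.27% of all genes were called. ATF4 exceeded DMSO by 0.95 ± 0.0595 under the combination in K1, while GOT1 and PCK2 were not called. PCK2 differed from DMSO by 0.11 ± 0.219 there (adjusted p = 0.728), and its treatment means in K1 stood in the order GSK, combination, DMSO, Nutlin.

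All 5 proliferation genes (MKI67, TOP2A, CCNB1, CCNE2 and MYC) fell with Nutlin and with the combination in both lines, MYC by −1.09 ± 0.0969 in TPC1 and −0.77 ± 0.123 in K1 with the combination. MYC is known to drive genes of proline synthesis. The part of these genes in the changes of the members was not tested.

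The genes most like each member were found from 6 log2 fold changes (3 treatments against DMSO in 2 lines), by the mean absolute difference over 9835 genes with at least 5 CPM in each line. This describes the libraries and shares their DMSO controls. PCK2 was nearest to MTHFD2, a mitochondrial folate enzyme, at 0.324 and then to ASNS at 0.342, where the median gene was at 0.854. ASNS was nearest to ARHGEF2 (0.176) and SLC6A9 (0.183), against a median of 0.757. GPT2 was nearest to CBS (0.0869), AARS (0.0929) and DHRS7B (0.095), and GOT1 to MID1IP1 (0.123), against medians of 0.378 and 0.446.

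The remaining members had close neighbours as well. ALDH18A1 was nearest to ARFIP2 (0.0444), PYCR1 to TBL2 (0.115), and GLUL to VSIG10 (0.0606), against medians of 0.384, 0.485 and 0.51. Among the members themselves, ALDH18A1 and PYCR1 were the closest pair at 0.271. This lay under the median gene of each, by a smaller margin than their nearest genes did. ASNS and GLUL were the farthest at 0.946, beyond the median gene of each.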

How the data were processed

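Poly(A)+ strand-specific RNA-seq was used from 16 libraries. Per the labels and methods, the authors aligned reads to GRCh37/hg19 with TopHat2 2.0.13 and counted them per gene with HTSeq 0.6.1. The deposited values are raw counts per gene symbol, without normalization. TPC1 columns numbered 3 have no matching replicate number in the labels and were assigned by treatment. Counts were fitted with edgeR 4.0.16 (limma 3.58.1, R 4.3.3), after TMM scaling and a filter of more than 0.1 CPM in at least 2 libraries, over the 8 libraries of a line (15273 genes in TPC1, 15900 in K1) or all 16. The quasi-likelihood test was used, with Benjamini-Hochberg adjustment over all genes tested. Alternatives were DESeq2 1.42.0, other scaling and filters, removal of a GC trend, fits of the compared groups alone, a replicate block, and leaving out each library. Replicate differences correlated at 0.494 to 0.698 between treatments in TPC1 and at −0.359 to 0.379 in K1, over 12318 and 12531 genes. The main fits held the treatment groups alone and did not pair libraries by replicate number. The replicate block was an alternative fit, with a block term in each line. Gene positions and lengths came from GENCODE matched by symbol (83.8% of genes) and promoters from RefSeq. Total counts ranged from 28888686 to 76648552. Steps were tested on simulated data. The named genes were all members, listed genes called at least once with each paralogue of a member, and the nearest genes. The members and lists were chosen with earlier results of these data known. Some listed genes are counted in their lists but not reported by name here.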

Additional observations from a re-analysis of the deposited data

Results flagged for a closer look

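In 10 cases the effect of a treatment on a member differed between the lines in a test of that difference (K1 minus TPC1, log2 scale, edgeR). With Nutlin against DMSO these were PYCR1 (0.88) and GLUL (0.66), whose changes were less negative in K1. With the combination against DMSO they were ASNS (−1.06), GOT1 (−1.30) and PCK2 (−1.59), whose fold changes were smaller in K1, together with PYCR1 (0.70) and GLUL (0.98). With the combination against Nutlin they were ASNS (−1.28), GOT1 (−1.24) and PCK2 (−1.60). The lines were grown in different media, so line and medium cannot be told apart. The differences of GOT1, PCK2 and GLUL were called under every alternative, while those of ASNS and that of PYCR1 under the combination depended on single K1 libraries.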

How the results depend on the processing

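Of 119 pairs of a member and a comparison, 94 kept their call under every alternative, 25 did not, and no called value changed sign, while 23 values that were not called did under some setting. All calls for members in TPC1 held under the replicate block, so within the lines the block changed no count of members called, and between the lines it moved the GSK count from 0 to 2 of 7 and took the untreated GOT1 difference below 1.5-fold, as did removal of the GC trend. The other counts of members that moved by more than 1.5 times were in K1, in the GSK difference between the lines, and for GSK in TPC1 without 1 library. Smaller moves were seen for the TPC1 interaction (4, from 3 to 5), TPC1 combination against GSK (3, down to 2), and between the lines untreated (3, from 2 to 4), with the combination against DMSO (5, from 4 to 6) and against Nutlin (3, down to 2). In K1, the count for the combination against DMSO (1) was 2 with library size alone, 2 with the GC trend removed and 0 with DESeq2's Wald test. DESeq2 gave 0 for Nutlin (1) and 0 for the combination against Nutlin (2), which was 3 with library size alone, without the filter or with the GC trend removed. The K1 interaction (0) had 2 without the filter and 1 with the GC trend removed. The GSK difference between the lines (0) had 1 with DESeq2 size factors, 1 with DESeq2's test and 2 without the filter. Leaving out 1 library gave 1 to 2 for GSK in TPC1, and in K1 0 to 1 for Nutlin, 0 to 1 for GSK, 0 to 2 for the combination against DMSO, 0 to 4 against Nutlin and 0 to 1 against GSK, and 0 to 1 for the GSK difference. Over all genes, the GSK count in TPC1 (214) ran from 22 to 253 without 1 library and from 106 to 480 otherwise, the TPC1 interaction (965) from 345 to 1147 and from 891 to 1573, the K1 GSK count (354) from 177 to 638 and from 105 to 398, the K1 combination against Nutlin (426) from 227 to 447 and from 327 to 482, the K1 interaction (388) from 20 to 691 and from 68 to 502, and the GSK difference (365) from 53 to 778 and from 108 to 613. With 2 libraries per treatment, differences of ASNS and PCK2 below 1.5-fold in K1 were not separable from the gap between its libraries. That gap itself reached ratios of 1.54 for ASNS and 0.596 for PCK2. The ASNS and PCK2 differences called in K1 lay above 1.5-fold. Each of them was lost when 1 of the libraries named above was left out, and under DESeq2's Wald test. The causes were not tested.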
